A study of Saccharomyces cerevisiae with 119 samples.

Results

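The enzymes that build lysine, arginine, histidine, leucine, isoleucine and valine, tryptophan and the other aromatic amino acids, and threonine are encoded in yeast by genes that share a transcriptional activator, Gcn4. The 43 genes described here, out of 6685 genes quantified, are genes for enzymes of these pathways and GCN4 (YEL009C) itself. Other genes of these pathways, among them ARG2, ARG7, HIS2, HIS6, LYS5 and TRP1, are counted apart below. The 43 were listed by name from pathway membership and not by their measured values, though with earlier results of these data known. They comprised 7 lysine genes, 6 arginine genes, 5 histidine genes, 4 leucine genes, 7 isoleucine and valine genes, 4 tryptophan genes, 4 genes of the chorismate pathway, 5 threonine genes and GCN4.

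The study profiled polyA RNA from *Saccharomyces cerevisiae* in rich medium (YPD, which supplies amino acids) at mid-exponential phase, in 119 libraries. Wild-type strains were treated with ethanol (5% for 30 min), with salt (0.4 M NaCl for 45 min) or left unstressed, with 3 replicates per group, except that Y10 had 2 ethanol libraries. The titles of all 3 Y10 salt libraries disagreed with their descriptions, 1 naming ethanol and 2 another replicate number. All 3 were grouped and numbered by description, which the treatment label matched. The paper states that 1 Y10 ethanol sample proved after the analysis to be a mix-up. The 8 strains were DBY8268 (a derivative of the laboratory strain S288c), YJM1129 (from a distillery), M1 and M22 (vineyard strains), Y10 (from coconut), YPS163 and YPS606 (oak strains) and YJM308 (a clinical isolate). A second experiment compared YPS606 carrying homozygous deletions of MSN2 and MSN4 together (msn2/4), of SKN7 (skn7) or of YAP1 (yap1) with YPS606 wild type (WT), each under ethanol, salt and no stress in 4 replicates. The deletions carried drug-resistance markers, and all 3 mutants were made in this 1 background. Cultures were sampled unstressed and then divided between the stresses, each part being added to an equal volume of medium with the stressor. The ethanol and salt responses thus share the unstressed libraries as their reference, and the 3 mutants share the WT libraries. Unstressed cells were taken before this dilution, so effects of dilution and time cannot be told apart from those of the stress. In such bulk cultures, a lower share of cells with a transcript and less transcript per cell cannot be told apart.

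Gcn4 is made when amino acids run short: translation of GCN4 mRNA is held back by short upstream reading frames and released when the kinase Gcn2 is active, so the level of GCN4 mRNA is only part of its control. Several pathways have activators or repressors of their own, including Leu3, which answers to a leucine precursor, Lys14, which answers to a lysine precursor, and the ArgR/Mcm1 complex, which represses arginine synthesis genes when arginine is present. Msn2 and Msn4 activate the general stress response through AGGGG elements, and Skn7 and Yap1 activate oxidative stress genes.

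Promoters of 5 genes of the set are shown (RefSeq sequence, build R64, read 5′ to 3′ on the coding strand). Each runs from 250 bases before to 50 bases after the start codon. Capitals mark matches on either strand to the searched motifs: the Gcn4 core TGACTC and its longer form TGACTCA, the Leu3 motif (CCG, any 4 bases, CGG), the Lys14 motif TCCNNNGGA, the stress element AGGGG and the Yap1 motif TTACTAA. HIS4 is at chrIII:68284-68583 (minus strand), LYS1 at chrIX:420687-420986 (minus strand), ARG4 at chrVIII:141353-141652 (minus strand), LEU1 at chrVII:478603-478902 (minus strand) and LEU2 at chrIII:91074-91373 (plus strand).
HIS4: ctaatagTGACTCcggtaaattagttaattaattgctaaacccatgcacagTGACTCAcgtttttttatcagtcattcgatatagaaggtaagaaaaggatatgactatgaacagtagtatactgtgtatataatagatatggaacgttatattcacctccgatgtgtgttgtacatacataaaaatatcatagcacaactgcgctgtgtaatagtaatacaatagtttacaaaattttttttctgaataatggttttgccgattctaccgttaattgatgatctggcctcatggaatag
LYS1: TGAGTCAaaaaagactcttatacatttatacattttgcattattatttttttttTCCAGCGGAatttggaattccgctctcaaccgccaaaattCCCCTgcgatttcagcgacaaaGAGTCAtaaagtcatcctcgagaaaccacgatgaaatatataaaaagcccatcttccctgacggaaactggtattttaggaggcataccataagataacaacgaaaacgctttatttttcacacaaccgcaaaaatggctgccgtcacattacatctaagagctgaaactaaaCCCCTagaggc
ARG4: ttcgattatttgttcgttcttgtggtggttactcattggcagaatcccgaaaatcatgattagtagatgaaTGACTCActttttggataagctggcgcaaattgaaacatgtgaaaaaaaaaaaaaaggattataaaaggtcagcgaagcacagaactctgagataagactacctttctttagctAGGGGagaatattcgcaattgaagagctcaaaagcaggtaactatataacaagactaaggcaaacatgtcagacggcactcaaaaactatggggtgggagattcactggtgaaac
LEU1: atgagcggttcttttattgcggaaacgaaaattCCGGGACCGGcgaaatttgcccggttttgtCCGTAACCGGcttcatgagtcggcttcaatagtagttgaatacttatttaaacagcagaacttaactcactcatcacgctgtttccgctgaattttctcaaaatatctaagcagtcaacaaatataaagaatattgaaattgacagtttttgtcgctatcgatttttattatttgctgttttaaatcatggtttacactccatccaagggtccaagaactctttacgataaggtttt
LEU2: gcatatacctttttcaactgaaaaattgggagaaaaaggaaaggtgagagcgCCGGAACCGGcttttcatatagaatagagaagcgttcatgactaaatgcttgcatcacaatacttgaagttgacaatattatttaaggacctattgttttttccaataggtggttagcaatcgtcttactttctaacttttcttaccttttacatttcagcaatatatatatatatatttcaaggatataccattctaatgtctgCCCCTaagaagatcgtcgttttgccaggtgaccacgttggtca

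HIS4 held Gcn4 cores 243 and 199 bases before its start codon, the nearer of them in the longer form. In LYS1 the longer Gcn4 form began 250 and a further core 134 bases upstream, the Lys14 motif 196 and AGGGG 156 bases upstream, with another AGGGG within the coding part. ARG4 held the Gcn4 motif 179 bases and AGGGG 65 bases upstream. LEU1 held Leu3 motifs 217 and 187 bases upstream and LEU2 held 1 at 198 bases upstream, with AGGGG inside its coding part. Of the promoters not shown, that of ARG3, with the largest mean rise in salt, held none of the searched motifs. That of ILV5, with the largest mean fall in ethanol, held TGACTCA 140 bases upstream. Over all 43 promoters, the Gcn4 core was found in 24 (55.8%), against 479 of 6001 promoters of all genes (7.98%). The longer TGACTCA was found in 18 (41.9%), against 2.73% of all promoters, and all 5 histidine genes held the core, as did 3 of 6 arginine genes (ARG4, ARG5,6 and ARG8). The Leu3 motif was in LEU1, LEU2, BAT1 and HOM6 (9.30%, against 1.45% of all promoters), in HOM6 only within the coding part. The Lys14 motif was in LYS1, LYS9, LYS12 and LEU9 (9.30%, against 3.40%). AGGGG was in 6 of the 43 (14.0%, against 21.6%), in LEU2 and BAT2 only within the coding part. The Yap1 motif was in ILV3, ARO1, ARO4 and GCN4 (9.30%, against 7.45%). The 24 genes with the core had a median mean-strain log2 response of −1.03 in ethanol, beside −0.88 for the 19 without it, and the salt medians were 0.35 and 0.19. For the longer form, the medians were −0.86 for the 18 genes with it and −1.06 for the 25 without it in ethanol, the opposite order, and 0.74 and 0.19 in salt. These are matches of letters, described without a test.

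Library totals were 7726935 to 18253407 counts (median 12691142), and the 43 genes took 0.512 to 3.07% of them. No gene of the set was at or under 3 counts in every library of any group, and all 43 passed the filter on low counts in both experiments. The deleted genes checked the labels: MSN2 had 0 to 6 counts in msn2/4 libraries, against 664 to 2034 in the other libraries of that experiment, MSN4 0 to 1 against 92 to 520, SKN7 0 to 4 in skn7 libraries against 585 to 1883, and YAP1 0 to 7 in yap1 libraries against 718 to 3189. Replicate 3 of the YPS606 ethanol libraries had the lowest scaling factor of the strain experiment (0.513), and the count of YPS606 genes apart from the mean ethanol response is also given without it. A gene is called changed below where its Benjamini-Hochberg adjusted p (edgeR quasi-likelihood test, over all genes) was under 0.01 and its change at least 1.5-fold. Levels are given as CPM, counts scaled to a common library total after TMM normalization.

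In unstressed cells, the set lay high in the range of expression. Per kilobase of coding sequence and averaged over the 8 strains, ILV5, the reductoisomerase of isoleucine and valine synthesis, was the highest at 1714 ± 466 CPM per kb (SD over strains, n = 8), and GCN4 was the next at 1102 ± 192 CPM per kb. ARG3, ornithine carbamoyltransferase, was the lowest at 22.3 ± 25.0 CPM per kb. The median gene of the set stood at the 84.4 percentile of all genes. The isozymes differed in level: per kilobase, ARO4 (543 ± 237 CPM, SD over strains) exceeded ARO3 (132 ± 16.3) by more than the spread over strains, and BAT1 (328 ± 91.1) exceeded BAT2 (209 ± 105) by little more than it. LYS20 (209 ± 108) and LYS21 (114 ± 33.1), and LEU4 (174 ± 28.3) and LEU9 (147 ± 52.4), differed by less than the larger SD of the pair. Both genes of a pair come from the same strains, and these SDs do not measure the spread of their differences within strains.

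ARG1 and ARG3 varied most between unstressed strains. ARG1, argininosuccinate synthetase (YOL058W, chrXV:219211-220473), had 413, 419 and 378 CPM in M1 and 259.6, 361 and 285 CPM in YJM1129, against 16.7, 11.4 and 16.3 CPM in YJM308, the lowest strain. Its strain means spanned 27.3-fold and those of ARG3 24.5-fold, where the median gene of the set spanned 2.21-fold and the median of 4803 genes averaging at least 10 CPM spanned 1.75-fold. ARG3 (YJL088W) had 63.3, 85.0 and 77.0 CPM in YJM1129, against 3.80, 2.37 and 3.03 CPM in YJM308. The M1 and YJM1129 libraries lay above every library of the other strains for ARG1. For ARG3, YJM1129 stood alone at the top and M1 overlapped Y10, which had 39.0, 30.7 and 35.7 CPM.

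Set against the mean of the 8 unstressed strains, arginine genes made up all calls in YJM1129, where 5 of 43 genes were higher and none lower (9.10% of all genes called): ARG3 by 2.57 ± 0.12 (log2, SE; adjusted p = 1.06e-24), ARG1 by 2.47, ARG5,6 by 1.73, CPA1 by 1.23 and ARG8 by 0.87. M1 had 5 genes higher and 3 lower (10.1% of all genes called), with ARG1 at 2.88 ± 0.11 (adjusted p = 8.67e-29) and ARG3 at 1.61, and with BAT2 (−1.15), LEU2 (−0.80) and ARO4 (−0.74) lower. The oak strains stood on the other side for arginine. YPS163 had 7 genes higher and 4 lower (15.6% of all genes called) and YPS606 4 higher and 5 lower (11.5%), and in both the lower genes included ARG1 (−1.47 and −1.60), ARG3 (−1.37 and −1.25), ARG4 (−0.90 and −1.02) and ARG5,6. LEU2, isopropylmalate dehydrogenase, was higher by 1.25 in each oak strain. DBY8268 had 4 genes higher and 4 lower (13.3% of all genes called), among them BAT2 at 1.09 and ARG3 at −1.12. M22 had 3 higher and none lower (6.45% of all genes called): HIS5 at 1.26, HIS4 at 0.72 and LYS1 at 0.61. The counts in YJM1129 and M22 were near the background.

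Lysine genes were low in unstressed Y10 and YJM308. Y10 had 1 gene higher and 12 lower (9.38% of all genes called), including 6 of the 7 lysine genes. LYS20, homocitrate synthase of the first step, had 61.7, 43.2 and 49.1 CPM in Y10, against strain means from 108 CPM in YJM308 upward. LYS1, which forms lysine from saccharopine, had 11.5, 14.4 and 7.61 CPM in Y10, below every unstressed library of the other strains. Their log2 differences from the mean were −2.13 ± 0.19 (adjusted p = 9.3e-14) and −2.01 ± 0.15 (adjusted p = 4.48e-16). YJM308 had 2 genes higher and 9 lower (14.3% of all genes called), with 5 of 7 lysine genes lower, from −0.63 for LYS12 to −1.05 for LYS20. Its higher genes were ARG4 (0.92) and TRP3 (0.67). TRP3 lies on chromosome XI (chrXI:36699-38153), where the median of 312 genes in YJM308 was 0.77; the part of that chromosome-wide level in the TRP3 value was not tested.

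**Figure D1:**
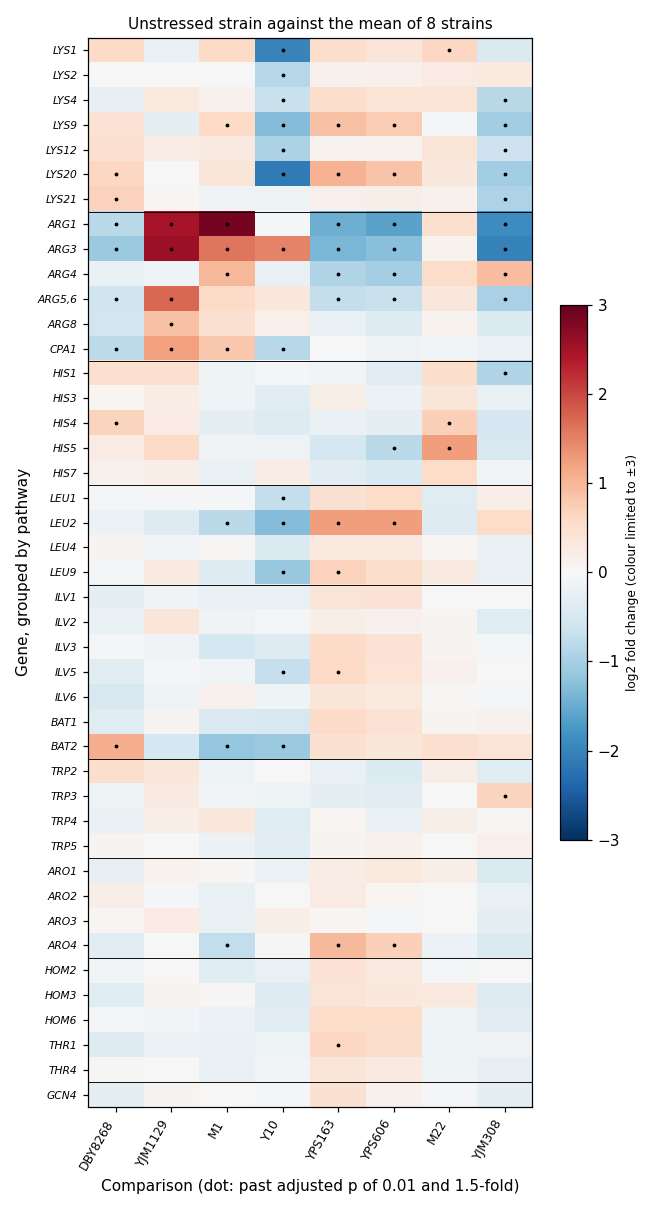
Log2 difference between each unstressed strain and the mean of the 8 unstressed strains for the 43 genes (rows, grouped by pathway); a dot marks a called gene and colour is limited at ±3. The arginine rows run from ARG1 at 2.88 in M1 to ARG3 at −2.04 in YJM308, and 6 of the 7 lysine rows are called lower in Y10, to −2.13 for LYS20.

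Averaged over the 8 strains, the ethanol response of the set was mostly downward. In ethanol, 25 genes fell (28.4% of all genes fell) and 4 rose (29.8% of all genes rose), and the median log2 change was −1.01, beside 0.05 over all 6090 genes tested. All 7 isoleucine and valine genes fell, as did 6 of 7 lysine genes. ILV5 had 21.1 to 437 CPM in the 23 ethanol libraries (median 68.8), against 1064 to 3490 CPM in the 24 unstressed libraries (median 1995), with no overlap. Its log2 change was −4.36 ± 0.09 (adjusted p = 2.73e-44).

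LYS4, homoaconitase, had 9.71 to 128 CPM in ethanol (median 19.0), against 135 to 464 CPM unstressed (median 315), a log2 change of −3.53 ± 0.08 (adjusted p = 4.3e-42). LEU9, an isozyme of isopropylmalate synthase, had 5.46 to 80.1 CPM in ethanol (median 27.0), against 91.0 to 482 CPM unstressed (median 267), a change of −3.25 ± 0.07 (adjusted p = 4.61e-42). Neither gene's ethanol libraries overlapped the unstressed ones. ILV3, dihydroxyacid dehydratase, fell by 2.36 ± 0.08 (adjusted p = 5.17e-34), with 25.8 to 275 CPM in ethanol (median 100.1) against 275 to 920 CPM unstressed (median 486), ranges that met at their ends. LYS2 (−2.25), LYS20 (−2.23), ARG8 (−2.09) and ILV1 (−1.55) followed.

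The 4 genes that rose in ethanol were LEU2, ARG4, HIS5 and HIS4. LEU2 had 141 to 2003 CPM in ethanol (median 368), against 36.5 to 272 CPM unstressed (median 81.8), a log2 change of 2.28 ± 0.07 (adjusted p = 1.35e-34). The ranges overlapped because strains differed in level, and within every strain the ethanol libraries were above the unstressed ones. ARG4, argininosuccinate lyase, rose by 1.83 ± 0.06 (adjusted p = 3.82e-35), HIS5, histidinol phosphate aminotransferase, by 0.96 and HIS4 by 0.67. The arginine list was thus split, with ARG4 up, ARG1 (−1.45), ARG3 (−1.31), ARG5,6 (−0.72) and ARG8 down, and CPA1 at 0.40 not called. The histidine list was split as well, with HIS1 (−1.26) and HIS7 (−1.19) down and HIS3 at −0.55 not called. TRP2 (−1.01), ARO2 (−1.23), THR1 (−1.11) and THR4 (−1.23) also fell.

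In salt the set moved mostly upward. Averaged over strains, 17 genes rose (18.8% of all genes rose) and 3 fell (20.9% of all genes fell), and the median log2 change was 0.35, beside −0.06 over all genes. All 6 arginine genes rose. ARG3 had 52.0 to 600.4 CPM in salt (median 273), against 2.37 to 85.0 CPM unstressed (median 10.3), a log2 change of 4.04 ± 0.09 (adjusted p = 1.05e-41). ARG1 had 171 to 1430 CPM in salt (median 666), against 11.4 to 419 CPM unstressed (median 39.8), a change of 3.48 ± 0.08 (adjusted p = 1.8e-39). For both genes the ranges over all strains overlapped.

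ARG4 had 129.6 to 978 CPM in salt (median 268), against 22.7 to 103 CPM unstressed (median 44.5), with no overlap, and its change was 2.62 ± 0.06 (adjusted p = 3.23e-41). ARG5,6, which makes both acetylglutamate kinase and the next reductase, rose by 2.18, ARG8, acetylornithine aminotransferase, by 1.33 and CPA1 by 0.70. Outside arginine, the genes that rose were LYS1 (1.62), LEU4 (1.23), HOM3 (1.16), HIS5 (1.09), ARO1 (1.00), LYS2 (0.99), TRP5 (0.96), HIS4 (0.93), LYS20 (0.92), ARO3 (0.85) and HIS3 (0.70). ILV6 (−0.67), BAT1 (−0.66) and ARO2 (−0.64) fell, all just past the 1.5-fold limit, and this count changed with the processing: 1 gene without a filter on low counts, 0 to 3 with a replicate number left out and 14 with no fold limit.

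The counts of genes that moved in each strain are read against those of all genes. In ethanol, DBY8268 had 3 genes up and 26 down (48.8% of all genes called in either direction), YJM1129 3 up and 29 down (62.0%), M1 1 up and 32 down (54.7%) and Y10 9 up and 18 down (56.9%). YPS163 had 6 up and 25 down (56.8%), YPS606 7 up and 19 down (56.5%), M22 6 up and 25 down (60.5%) and YJM308 7 up and 24 down (55.0%). The called share of the set, 60.5 to 76.7% of the 43 genes, was thus near the background in YPS606 and Y10, and the excess of falls over rises was present in each. In all 8 strains 11 genes fell: LYS2, LYS4, LYS9, LYS20, ARG8, HIS1, HIS7, LEU9, ILV1, ILV3 and ILV5. LEU2 alone rose in all 8. LYS1, ARG3, ILV2 and HOM3 rose in some strains and fell in others.

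In salt, DBY8268 had 9 genes up and 5 down (25.5% of all genes called), YJM1129 16 up and none down (25.0%), M1 23 up and none down (30.1%) and Y10 17 up and 5 down (39.0%). YPS163 had 17 up and 14 down (49.2%), YPS606 19 up and 13 down (49.3%), M22 21 up and 4 down (43.8%) and YJM308 13 up and 5 down (25.1%). LYS1, ARG3, ARG4, ARG5,6, LEU4 and TRP5 rose in all 8 strains, and none fell in all 8. LYS4, LYS12, LEU1, LEU2, ILV3 and ARO4 changed both ways, and ILV2 and HOM2 were not called in any strain. The median gene of the set had a spread of 1.59 (log2, highest minus lowest strain) in its ethanol response and 1.27 in its salt response, beside 1.39 and 1.14 for the median of all genes.

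**Figure D2:**
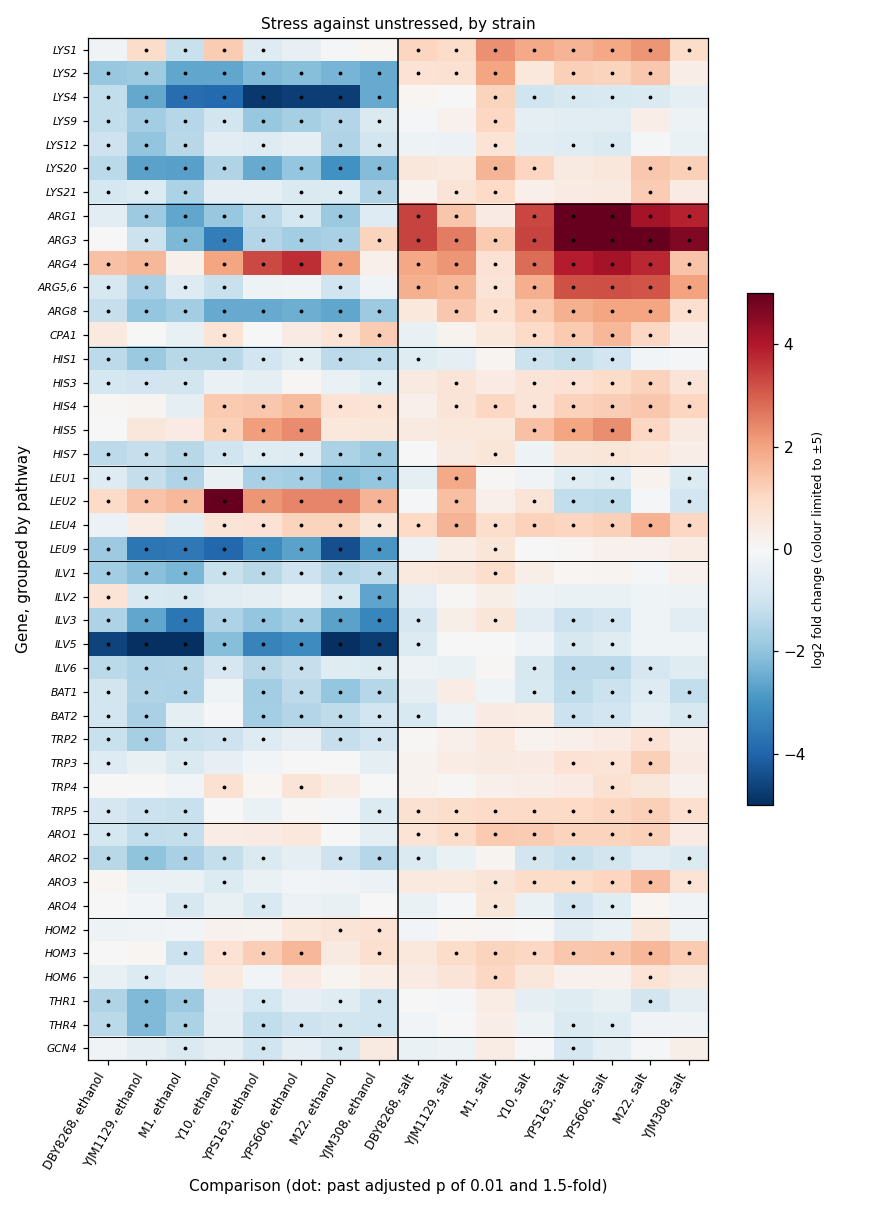
Log2 change in ethanol (left) and in salt (right) against the same strain's unstressed libraries for the 43 genes (rows, grouped by pathway) in each strain (columns); a dot marks a called gene and colour is limited at ±5. ILV5, LYS4 and LEU9 fell in every strain in ethanol, to −6.38 for ILV5 in M1, and ARG3, ARG4 and ARG5,6 rose in every strain in salt, to 5.86 for ARG3 in YPS606, while CPA1 was called in 4 strains.

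The strain responses were next set against the mean response of the 8 strains. Since each difference uses the strain's unstressed libraries, it is not independent of the unstressed levels above. For salt, the gene farthest from the mean response was an arginine gene in each strain but Y10. M1 had 13 genes higher and 4 lower than the mean response (23.3% of all genes called), and all 4 lower genes were arginine genes. ARG1 in M1 had 613, 542 and 444 CPM in salt, against 413, 419 and 378 CPM unstressed, a response of 0.40 that was not called (adjusted p = 0.106) and that lay 3.08 ± 0.21 below the mean response (adjusted p = 7.13e-17). ARG3 (−2.71), ARG4 (−1.87) and ARG5,6 (−1.53) were the others. The M1 salt libraries lay within the range of the other strains for ARG1, and its unstressed libraries above it.

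YPS606 had 7 genes higher and 2 lower than the mean salt response (13.0% of all genes called) and YPS163 6 higher and 7 lower (14.8%). ARG1 had 1153, 744 and 1037 CPM in salt in YPS606, against 17.1, 21.9 and 15.4 CPM unstressed, and 842, 821 and 1103 CPM in salt in YPS163, against 19.4, 20.8 and 19.1 CPM unstressed. These responses exceeded the mean by 2.28 ± 0.21 (adjusted p = 7.65e-12) and 2.07 ± 0.21 (adjusted p = 8.97e-11). ARG3 (1.82 and 1.80), ARG4 (1.55 and 1.30), ARG5,6 and CPA1 were also higher in both oak strains, and HIS5 by 1.22 and 0.87. LEU2 was lower in both, at −1.10 and −1.07: in YPS606 it had 112, 72.5 and 105 CPM in salt, against 242, 228 and 224 CPM unstressed.

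M22 had 10 genes higher and none lower than the mean salt response (14.0% of all genes called), with ARG3 at 1.30 ± 0.20 (adjusted p = 1.79e-06) from 600.4, 516 and 523 CPM in salt, against 13.4, 13.3 and 14.0 CPM unstressed. YJM1129 had 4 higher and 3 lower (7.80% of all genes called). There ARG1 had 709, 849.8 and 803 CPM in salt, against 259.6, 361 and 285 CPM unstressed, 2.09 ± 0.20 below the mean (adjusted p = 2.26e-11), and the leucine genes LEU1 and LEU2 were higher. LEU1, isopropylmalate isomerase, had 845, 860.2 and 731 CPM in salt in YJM1129, against 224, 218 and 204 CPM unstressed, and its response exceeded the mean by 1.97 ± 0.15 (adjusted p = 7.82e-14). LEU2 exceeded it by 1.65 and BAT1 by 1.02. No other strain had LEU1 called as higher in salt.

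DBY8268 had no gene higher and 4 lower than the mean salt response (3.73% of all genes called), led by CPA1 at −1.08 ± 0.16 (adjusted p = 3.16e-06), which had 130.1, 167 and 166 CPM in salt, against 247, 182 and 179 CPM unstressed. YJM308 had none higher and 6 lower (4.99% of all genes called), led by ARG4 at −1.20 ± 0.14 (adjusted p = 1.37e-08) with 212, 236 and 302 CPM in salt, against 98.3, 93.3 and 88.9 CPM unstressed. Y10 had 2 higher and 2 lower (6.09% of all genes called), and 2 in all without the salt library titled as ethanol. The higher genes were LEU2 (0.82) and BAT2 (0.81), and the lower ones LYS4 (−0.66) and HIS7 (−0.60). The strain means of ARG1 lay closer together in salt than unstressed (6.34-fold from YJM308 to M22, beside 27.3-fold). So did those of ARG3 (8.99-fold from DBY8268 to M22, beside 24.5-fold) and ARG5,6 (5.47-fold, beside 6.52-fold). Those of the other arginine genes lay farther apart in salt: ARG4 (5.91-fold, beside 4.03-fold), ARG8 (4.64-fold, beside 2.69-fold) and CPA1 (6.53-fold, beside 4.26-fold).

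**Figure D3:**
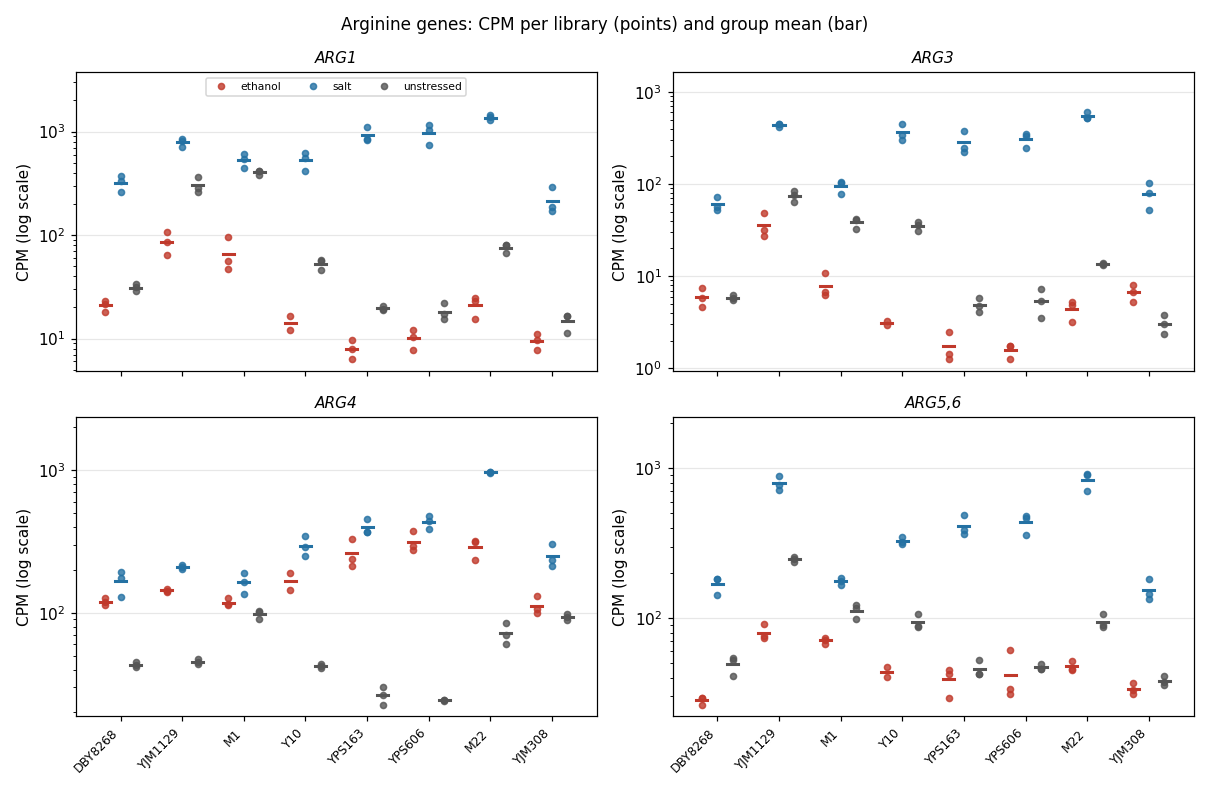
CPM (log axis) of ARG1, ARG3, ARG4 and ARG5,6 in each library (points) with the mean of each group (bar), for ethanol, salt and unstressed cells of the 8 strains. In M1 the ARG1 salt libraries (444 to 613 CPM) sit just above the unstressed ones (378 to 419 CPM), whereas in YPS606 they are 744 to 1153 CPM against 15.4 to 21.9 CPM.

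In ethanol, ARG4 was the gene of the set that differed most from the mean response in both oak strains, and it differed the other way in M1. YPS606 had 14 genes higher and 1 lower than the mean ethanol response (10.6% of all genes called; 11 genes in all without its ethanol replicate 3) and YPS163 6 higher and 3 lower (13.8%). ARG4 had 296, 274 and 373 CPM in ethanol in YPS606, against 24.3, 24.4 and 24.1 CPM unstressed, and 239, 332 and 212 CPM in YPS163, against 30.0, 22.7 and 26.4 CPM unstressed. In M1 it had 127, 113 and 115 CPM in ethanol, against 103, 101 and 89.9 CPM unstressed, a response that was not called (adjusted p = 0.107). In ethanol the oak strains thus lay above M1, and unstressed below it. The differences from the mean response were 1.86 ± 0.15 (adjusted p = 5.1e-14) in YPS606, 1.47 ± 0.15 (adjusted p = 5.36e-11) in YPS163 and −1.56 ± 0.14 (adjusted p = 2.43e-12) in M1. HIS5 (1.40 and 1.14) was also higher in YPS606 and YPS163, with HOM3, aspartate kinase, at 1.18 and 0.74.

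M1 had no gene higher and 15 lower than the mean ethanol response (11.4% of all genes called), led by ILV5 at −2.02 ± 0.19 (adjusted p = 6.52e-12). ILV5 had 23.8, 22.1 and 21.1 CPM in ethanol in M1, against 1922, 2263 and 1448 CPM unstressed. HOM3 (−1.55) and ILV3 (−1.24) were also lower there. HOM3 had 184, 143 and 120.2 CPM in ethanol in M1, against 283, 349 and 293 CPM unstressed, a fall, whereas in YPS606 it rose to 1221, 1125 and 1246 CPM in ethanol, against 411, 382 and 339 CPM unstressed.

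Y10 had 10 genes higher and 1 lower than the mean ethanol response (16.5% of all genes called), from 2 ethanol libraries. LEU2 in Y10 had 1602 and 2003 CPM in ethanol, against 40.9, 41.8 and 36.5 CPM unstressed, a log2 response of 5.44 that exceeded the mean by 3.16 ± 0.20 (adjusted p = 2.45e-17). ILV5 fell less in Y10 than on average, with 254 and 357 CPM in ethanol against 1527, 1068 and 1064 CPM unstressed, a difference of 2.25 ± 0.20 (adjusted p = 9.59e-13). ARG3 was its only lower gene at −2.14, with 3.30 and 2.93 CPM in ethanol against 39.0, 30.7 and 35.7 CPM unstressed. BAT1, BAT2, LEU1 and LYS1 were higher by 1.00 to 1.27.

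YJM308 had 6 genes higher and 5 lower than the mean ethanol response (12.1% of all genes called). ARG3 rose there, with 5.22, 6.76 and 8.08 CPM in ethanol against 3.80, 2.37 and 3.03 CPM unstressed, 2.42 ± 0.28 above the mean (adjusted p = 9.59e-10). ILV2, the catalytic subunit of acetolactate synthase, was lower by 1.92 ± 0.12 in YJM308 (adjusted p = 1.74e-17) and higher by 1.38 ± 0.12 in DBY8268 (adjusted p = 2.78e-14). DBY8268 had 9 genes higher and 4 lower (33.5% of all genes called), so its share of the set, 30.2%, was near the background. LYS4 led it, with 95.5, 83.4 and 128 CPM in ethanol against 211, 243 and 257 CPM unstressed, 2.31 ± 0.18 above the mean (adjusted p = 6.34e-16). M22 had 1 higher and 6 lower (12.8% of all genes called), including LYS4 at −1.18 and LEU9 at −1.13. YJM1129 had 2 higher and 10 lower (20.0% of all genes called), among them THR1, homoserine kinase, at −1.09 and THR4, threonine synthase, at −0.97.

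The isozyme pairs moved apart to different degrees. Reads that fit both genes of a pair are divided by an estimate in the deposited counts, so values of near-identical stretches are less certain. In ethanol LEU9 fell in all 8 strains, while LEU4 was called as higher in 5 (Y10, YPS163, YPS606, M22 and YJM308) and as lower in none. In M22, LEU4 had 708, 924 and 547 CPM in ethanol, against 328, 386 and 283 CPM unstressed, and LEU9 had 13.5, 18.5 and 11.9 CPM, against 298, 329 and 279.9 CPM. In salt LEU4 rose in all 8 strains and LEU9 in M1 alone (0.62).

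LYS20 fell in ethanol in all 8 strains, by 1.34 in DBY8268 to 3.02 in M22, and LYS21 in 6 of 8, by at most 1.57 in M1. In M22, LYS20 had 25.9, 39.7 and 38.4 CPM in ethanol, against 269, 306 and 265 CPM unstressed, and LYS21 had 82.2, 128 and 90.1 CPM, against 159.9, 151 and 164 CPM. LYS21 was thus the lower of the pair unstressed and the higher in ethanol in that strain. BAT1, the mitochondrial branched-chain aminotransferase, fell in ethanol in 7 strains and BAT2, the cytosolic one, in 6. In Y10 neither was called, BAT1 having 199 and 268 CPM in ethanol, against 269, 278 and 261 CPM unstressed, and BAT2 85.5 and 104 CPM, against 94.5, 101 and 94.5 CPM. ARO3, the DAHP synthase inhibited by phenylalanine, rose in salt in 6 strains and ARO4, the one inhibited by tyrosine, in M1 alone, while ARO4 fell in YPS163 and YPS606. In YPS163, ARO3 had 292, 289 and 282 CPM in salt, against 142, 156 and 152 CPM unstressed, and ARO4 had 601, 591 and 493 CPM, against 1179.6, 1162 and 943 CPM. The differences between the isozymes of a pair were not tested.

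**Figure D4:**
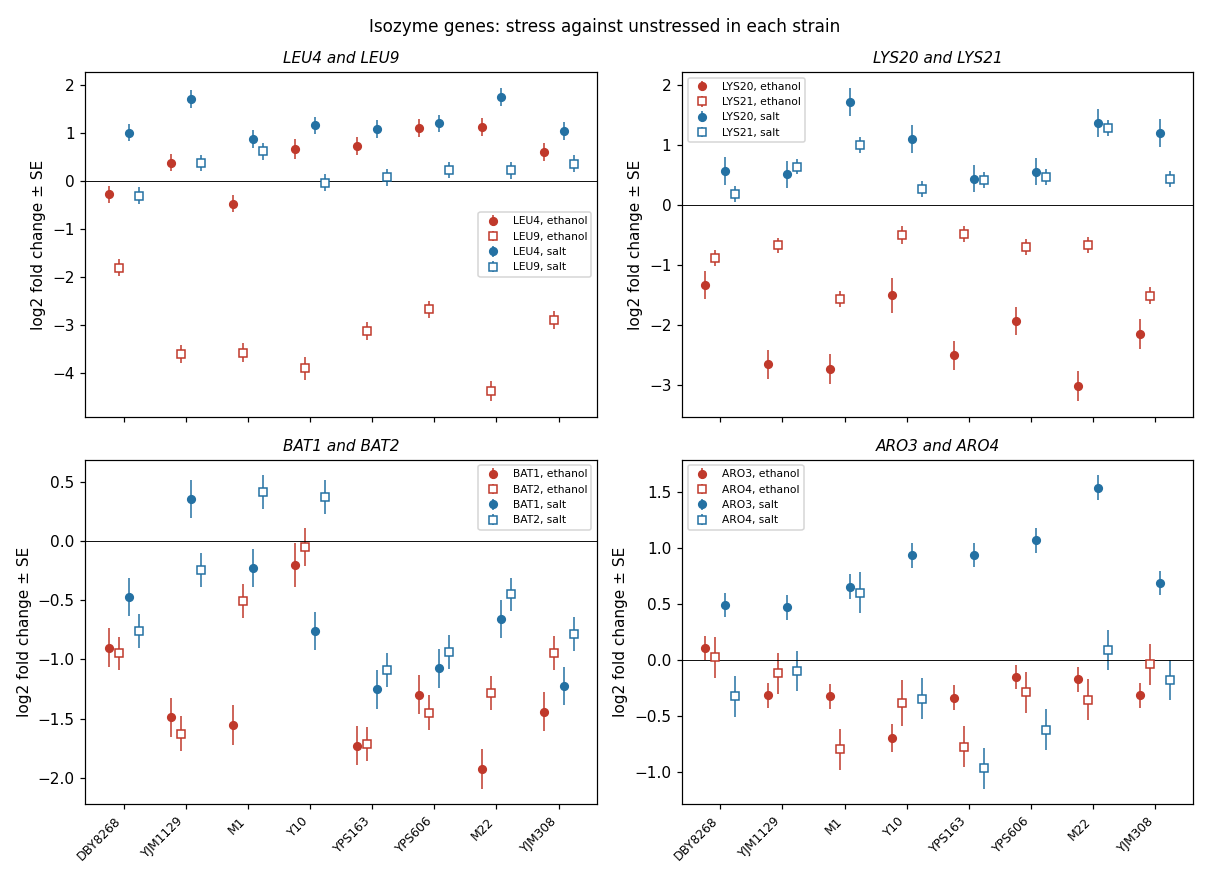
Log2 change (± SE) of the isozyme pairs LEU4 and LEU9, LYS20 and LYS21, BAT1 and BAT2, and ARO3 and ARO4 in each strain, in ethanol (red) and in salt (blue), filled for the gene named earlier in each pair and open for the other. LEU9 in ethanol lies between −1.81 and −4.38, apart from LEU4, which lies between −0.47 and 1.12.

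GCN4 mRNA was not called in the mean response to either stress. GCN4 had 369.8 to 1255 CPM in ethanol (median 643) and 503 to 1318 CPM in salt (median 819), against 617 to 1424 CPM unstressed (median 926), mean log2 changes of −0.45 ± 0.06 (adjusted p = 6.72e-09) and −0.18 ± 0.06 that were below the 1.5-fold limit. The ranges overlapped widely. It fell in ethanol in M1 (−0.74), YPS163 (−0.98) and M22 (−0.78), and in salt in YPS163 (−0.84). In YPS163 it had 548, 733 and 628 CPM in ethanol and 728, 745 and 636 CPM in salt, against 1424, 1310.4 and 1062 CPM unstressed. YJM308 stood on the other side, with 1255, 922 and 932 CPM in ethanol against 912, 655 and 683 CPM unstressed, a response of 0.47 that was not called but lay 0.91 ± 0.17 above the mean response (adjusted p = 2.39e-05). Among 5 genes of the Gcn4 control pathway, the cyclin gene PCL5, whose product promotes Gcn4 turnover, rose in both stresses (1.13 in ethanol and 1.23 in salt), GCN1 (−0.98) and GCN3 (−1.23) fell in ethanol, and GCN2 was at 0.19 and 0.27 and not called. SNO1, a vitamin B6 gene and Gcn4 target, rose by 1.76 and 2.24, but it did not pass the filter on low counts in the mutant experiment. Its ethanol response in Y10 was 2.17 ± 1.39 and not called (adjusted p = 0.162). The partner gene of SNO1, SNZ1, was at −0.39 and 0.29 and not called.

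Genes around the set were counted from lists of the same kind. Over all genes, 29.8% rose and 28.4% fell in ethanol, and 18.8% rose and 20.9% fell in salt. Of 27 other amino acid synthesis genes, 5 rose and 13 fell in ethanol, and 4 rose and 8 fell in salt. GLN1, glutamine synthetase, fell in both stresses (−0.92 in ethanol and −0.97 in salt), as did ASN1, asparagine synthetase (−0.60 and −0.61). SER3 rose in ethanol by 2.31. Of 5 pathway regulators, ARG82 rose (1.58) and ARG80 (−1.32) and LEU3 (−0.62) fell in ethanol, while in salt the 5 lay between −0.21 (ARG80) and 0.18 (ARG82), short of the 1.5-fold limit. Of 7 amino acid breakdown genes, 6 rose and none fell in ethanol, ARO10 (3.42) and PUT1 (2.90) the most, and 3 rose and 2 fell in salt, where CAR1, arginase, was at −1.02.

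Genes of the set were higher in unstressed skn7 and yap1 cells than in unstressed WT. In skn7, 11 genes were higher and none lower (3.48% of all genes called; 7 without replicate 4), and in yap1 10 were higher and none lower (2.12% of all genes called). ARG3 had 7.42, 9.22, 11.2 and 8.75 CPM in skn7 and 8.66, 6.81, 8.43 and 7.22 CPM in yap1, against 3.41, 3.13, 3.15 and 3.42 CPM in WT. LYS1 had 104, 112, 121 and 118 CPM in skn7 and 117, 106, 85.7 and 107 CPM in yap1, against 43.8, 44.3, 39.3 and 39.4 CPM in WT. Neither mutant overlapped WT for these genes. The log2 differences were 1.47 ± 0.17 (adjusted p = 4.44e-09) and 1.25 ± 0.17 (adjusted p = 7.56e-07) for ARG3, and 1.45 ± 0.12 (adjusted p = 2.72e-13) and 1.32 ± 0.12 (adjusted p = 5.91e-12) for LYS1.

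ARG1 had 56.0, 48.6, 42.1 and 50.2 CPM in skn7 and 35.9, 34.8, 38.7 and 34.3 CPM in yap1, against 17.2, 17.6, 21.9 and 17.9 CPM in WT. It again lay above WT in every mutant library. The other genes higher in both mutants were LYS2, LYS9, LYS12, ARG4, ARG5,6, HIS4 and LEU2, by 0.59 to 0.97, and LYS4 was called in skn7 alone (0.62). The difference between the mutants was not tested, and since both use the WT libraries their counts are not independent. None of the 27 other amino acid synthesis genes was called in either mutant, and GCN4 itself was at −0.21 and −0.19 and not called (adjusted p = 0.086 and 0.177). In unstressed msn2/4 cells, no gene of the set was called by edgeR or by DESeq2 (0.209% of all genes called by edgeR), and 4 had an unadjusted p under 0.05.

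The mutants' stress responses were set against the WT response. In ethanol, skn7 had no gene higher and 8 lower (3.67% of all genes called) and yap1 none higher and 6 lower (3.34%). LYS2, aminoadipate reductase, had 37.1, 44.04, 39.3 and 43.3 CPM in ethanol in skn7 and 34.3, 39.4, 39.8 and 39.0 CPM in yap1, against 59.6, 52.2, 62.8 and 56.3 CPM in ethanol in WT. Its response was −3.36 in skn7 and −3.52 in yap1, against −2.15 in WT, differences of −1.21 ± 0.17 (adjusted p = 1.4e-06) and −1.36 ± 0.17 (adjusted p = 1.85e-07). LYS2 was therefore both higher unstressed and lower in ethanol in these mutants than in WT.

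LYS1 had 24.2, 33.5, 31.3 and 32.3 CPM in ethanol in skn7 and 31.2, 41.2, 36.2 and 38.8 CPM in yap1, against 31.8, 32.5, 34.6 and 35.0 CPM in WT, so its ethanol libraries overlapped between genotypes while the unstressed ones did not. The differences of the LYS1 response were −1.59 ± 0.17 (adjusted p = 1.71e-09) in skn7 and −1.18 ± 0.17 (adjusted p = 1.71e-06) in yap1. ARG4 had 129.9, 175, 152 and 143 CPM in ethanol in skn7 and 155, 226, 177 and 167 CPM in yap1, against 254, 221, 273 and 252 CPM in WT, and HIS4 had 283, 399, 329.9 and 333 CPM in skn7, against 587, 534, 576 and 606 CPM in WT. Both lay below WT in ethanol in every skn7 library. Their responses were lower by 1.55 (ARG4, skn7), 1.18 (ARG4, yap1), 1.41 (HIS4, skn7) and 0.87 (HIS4, yap1) on the log2 scale. The LYS21 and ARG1 responses were lower in both mutants, and those of ARG3 (−1.28) and HOM3 (−0.69) in skn7. In yap1 ARG3 was at −1.24 (adjusted p = 0.0114) and HOM3 at −0.51, and neither was called. ARG3 had at most 36 counts per ethanol library in skn7 and 29 in yap1.

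In msn2/4 the direction was opposite: 10 genes had a higher ethanol response than WT and none a lower one (13.1% of all genes called). LEU1 had 1969, 2059, 1602 and 1434 CPM in ethanol in msn2/4, against 696, 405, 751 and 734 CPM in ethanol in WT, with no overlap, and its response exceeded the WT response by 1.49 ± 0.24 (adjusted p = 3.69e-06). LEU9 had 291, 303, 303 and 266 CPM, against 115, 86.3, 148 and 137 CPM in WT, an excess of 1.37 ± 0.21 (adjusted p = 9.53e-07). ARG1 had 17.5, 20.1, 23.2 and 23.97 CPM, against 10.7, 6.96, 10.8 and 9.29 CPM in WT, an excess of 1.52 ± 0.20 (adjusted p = 1.08e-07). All 4 msn2/4 libraries were above WT for these genes. ILV3 (0.98), BAT1 (0.97), LYS21 (0.91), LYS4 (0.87), ILV5 (0.85), LYS20 (0.79) and LYS12 (0.67) made up the rest. WT replicate 2 was the lowest of its group for LEU1 and is described in the closing section.

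In salt, msn2/4 had 4 genes with a higher response than WT and none with a lower one (4.87% of all genes called). LEU1 had 817, 744, 722 and 722 CPM in salt in msn2/4, against 216, 198, 217 and 215 CPM in salt in WT, and LEU2 had 258, 244, 229 and 255 CPM, against 91.3, 84.9, 83.0 and 77.6 CPM in WT. Their responses exceeded the WT response by 1.86 ± 0.24 (adjusted p = 7.36e-08) and 1.73 ± 0.20 (adjusted p = 6.15e-09). BAT1 (1.05) and HIS4 (0.72) were the others. LEU1, LEU2 and BAT1 are 3 of the 4 genes of the set with a Leu3 motif, and hold it upstream. The other, HOM6, has its match within the coding part and was at 0.25 and not called. In the msn2/4 ethanol response LEU1 and BAT1 were called and LEU2 was not (0.27), while LEU9, with no Leu3 motif, was called (1.37). A part of Leu3 in these responses was not tested. The call of HIS4 was lost in the fit without the replicate block.

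The salt responses of skn7 were lower for 4 genes and higher for 4 (12.5% of all genes called), and those of yap1 lower for 1 and higher for 8 (9.32%). ARG1 had 1219.5, 1322, 1152 and 1369 CPM in salt in skn7, against 1387, 1088, 1048 and 1061 CPM in salt in WT, so the salt libraries overlapped, and with its higher unstressed level the response was lower by 1.26 ± 0.18 (adjusted p = 6.03e-07). The ARG4 (−0.78), ARG3 (−0.73) and LYS1 (−0.69) responses were also lower in skn7. In yap1, the ARG3 response was lower by 0.99 ± 0.20 (adjusted p = 0.000334). Its salt libraries had 424, 445, 388 and 372 CPM, against 380.2, 362, 296 and 324 CPM in WT. These ranges overlapped, and unstressed ARG3 was higher in yap1 than in WT by 1.25 (log2).

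LYS9, which forms saccharopine, had 913, 1204, 1113 and 952 CPM in salt in yap1, against 434, 275, 308 and 259.8 CPM in WT, an excess response of 0.91 ± 0.16 (adjusted p = 4.78e-05). LYS4 had 650.0, 710.2, 684 and 619 CPM, against 319, 215, 251 and 222 CPM in WT, an excess of 0.89. In salt, every yap1 library was above WT for both. ARO2, chorismate synthase, exceeded the WT response in yap1 (0.82) and skn7 (0.60). LYS12, LYS20, HIS1, ILV1 and HOM2 in yap1, and LYS4, ARG8 and ILV3 in skn7, were higher by 0.59 to 0.76. The counts for skn7 and yap1 in salt ranged from 3 to 12 and from 4 to 14 genes when a replicate number was left out.

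**Figure D5:**
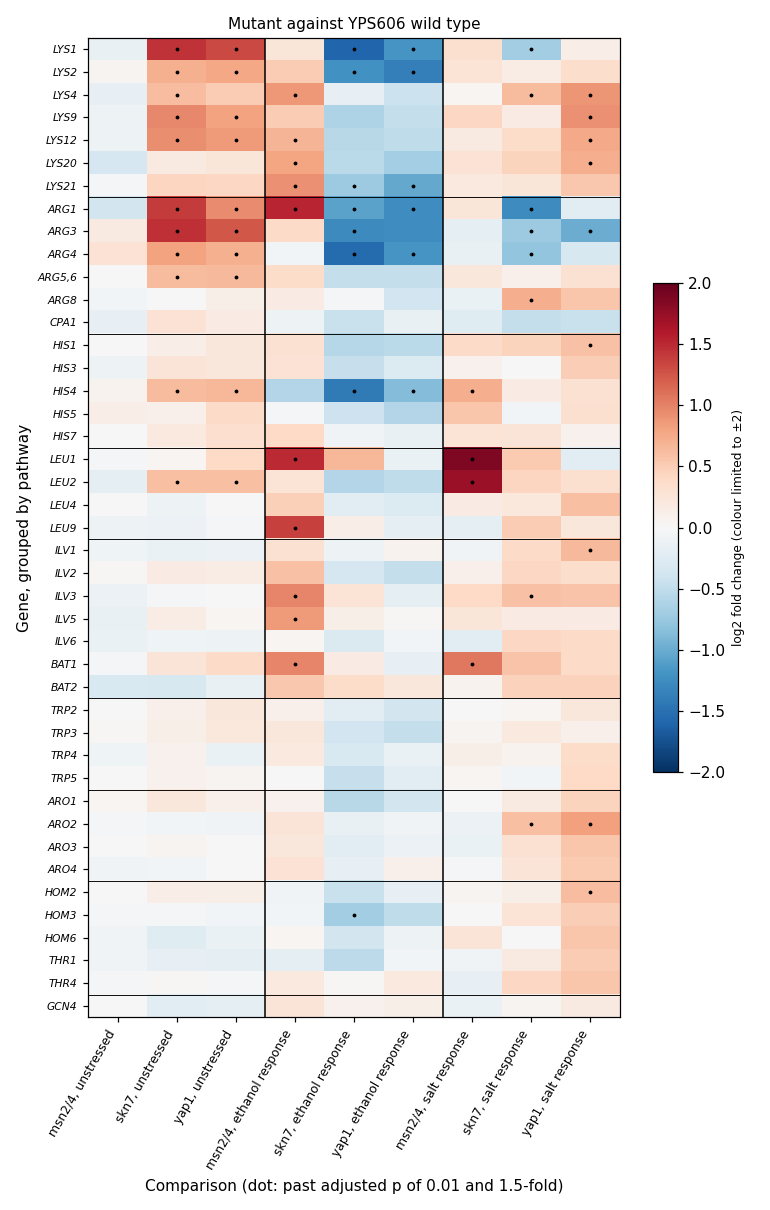
Log2 difference between each mutant and YPS606 WT for the 43 genes (rows, grouped by pathway): unstressed levels (left), and the ethanol response (middle) and salt response (right) of the mutant minus that of WT; a dot marks a called gene and colour is limited at ±2. Unstressed, 5 of 7 lysine and 4 of 6 arginine rows are called higher in skn7 and 4 of each list in yap1 (ARG3 at 1.47 and 1.25). In the ethanol response 3 lysine rows are called lower in skn7 and 3 in yap1 (LYS2 at −1.21 and −1.36). LEU1 in msn2/4 is higher in both responses (1.49 and 1.86).

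YPS606 wild type was grown in both experiments, which allowed its responses to be compared in a fit of the 21 libraries that was added after the data were seen. Anything that differed between the experiments cannot be told apart from the cultures themselves. The ethanol response of 3 genes of the set was higher in the mutant experiment than in the strain experiment (2.19% of all genes called). LEU1 had 696, 405, 751 and 734 CPM in ethanol, against 257, 319, 287 and 299.6 CPM unstressed, in the mutant experiment, and 84.7, 121 and 91.7 CPM in ethanol, against 299, 333 and 335 CPM unstressed, in the strain experiment. The gene thus rose in the mutant experiment, by 1.16, and fell in the strain experiment, by 1.70, and the responses differed by 2.85 (adjusted p = 1.56e-05).

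ILV5 had 1116, 821, 1171 and 1104 CPM in ethanol in the mutant experiment and 263, 437 and 194 CPM in ethanol in the strain experiment, with responses of −1.26 and −3.15 (difference 1.91, adjusted p = 0.00109). LEU9 responses were −1.53 and −2.68 (difference 1.14, adjusted p = 0.00543), and BAT1 (−0.30 and −1.30, adjusted p = 0.0109) and ILV3 (−0.78 and −1.71, adjusted p = 0.0384) were not called. LEU1, ILV5 and LEU9 also had higher ethanol responses in msn2/4 than in WT, a comparison that lies wholly within the mutant experiment. For the arginine, lysine and histidine genes the ethanol responses differed between the experiments by −0.65 (LYS20) to 0.52 (ARG3), and none was called. In salt no gene of the set, and 0% of all genes, was called by edgeR, while 6 of the 43 and 229 of all genes had an unadjusted p under 0.05.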

How the data were processed

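RNA was measured in 119 libraries of 50-base single-end reads, 71 in the strain experiment and 48 in the mutant experiment. The authors trimmed reads with Trimmomatic, aligned them with STAR 2.6.1 to strain-specific references made with GATK calls on sacCer3 (R64) and estimated counts per gene with RSEM 1.3.1. The submitters' processing notes also name Bowtie2 2.3.4.1, and whether counting used strand is not given in the sources used here. What the authors deposited for each library are these RSEM estimates, unnormalized expected counts. RSEM divides reads that fit several genes, so close paralogs (LEU4 and LEU9, LYS20 and LYS21) are less certain. Library totals were 7726935 to 18253407 counts.

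Expected counts were rounded to whole numbers. Genes averaging at least 1 CPM in at least 1 group were kept (6090 in the strain experiment and 5748 in the mutant experiment). Each experiment was fitted in R 4.3.3 with edgeR 4.0.16 (TMM scaling, quasi-likelihood test), with group and replicate number as factors after the study's own model, and p-values were adjusted by Benjamini-Hochberg over all genes. The threshold was an adjusted p of 0.01 with a change of 1.5-fold. A strain's difference was taken from the mean of all 8 strains, itself included. Promoters and gene positions came from RefSeq tables of R64 and were searched in Python 3.11.15. The test was checked on simulated counts. Alternatives included DESeq2 1.42.0, its size factors, other filters and thresholds, no replicate block, the culture as block and each replicate number left out. The fit of YPS606 over both experiments and the setting without YPS606 ethanol replicate 3 were added after the data were seen. Replicates are separate cultures by the study's description.

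The 43 genes and the other gene lists were chosen with earlier results of these data known. Values per library are given for GCN4, for the isozyme pairs and, in each comparison, for up to 5 called genes with the largest changes in the same direction in every replicate; other genes are given by their log2 values, and those of the YPS606 comparison were chosen after their values were seen. Another gene of these pathways is not reported here and was left out of all lists and counts of the set.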

Additional observations from a re-analysis of the deposited data

Results flagged for a closer look

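Among 108 groups of 4 libraries tested by pathway mean, 3 held a library apart from the rest, where chance gives about 1 in 20. In mean log2 CPM, the lysine genes were at 8.35 in unstressed skn7 replicate 2, beside 8.43 to 8.44 in the other 3 libraries. WT ethanol replicate 2 was at 6.83 for the histidine genes, beside 6.99 to 7.01, and at 8.08 for the isoleucine and valine genes, beside 8.34 to 8.39. Without replicate 2, the excess of the LEU1 ethanol response in msn2/4 over WT was 1.20, beside 1.49 with all replicates.

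Strain responses were tested against the mean response, and the gene farthest from it in each strain was as follows on the log2 scale. In ethanol it was LYS4 in DBY8268 (2.31), THR1 in YJM1129 (−1.09), ILV5 in M1 (−2.02), ARG4 in YPS163 (1.47) and YPS606 (1.86), LEU2 in Y10 (3.16), LYS4 in M22 (−1.18) and ARG3 in YJM308 (2.42). In salt it was CPA1 in DBY8268 (−1.08), ARG1 in YJM1129 (−2.09), M1 (−3.08), YPS163 (2.07) and YPS606 (2.28), LEU2 in Y10 (0.82), ARG3 in M22 (1.30) and ARG4 in YJM308 (−1.20). Each had an adjusted p under 0.01 in edgeR, and the weakest was LEU2 in Y10 in salt (adjusted p = 0.000985).

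The mutants' responses that differed most from the WT response were ARG1 in msn2/4 (1.52), LYS1 in skn7 (−1.59) and LYS2 in yap1 (−1.36) in ethanol, and LEU1 in msn2/4 (1.86), ARG1 in skn7 (−1.26) and ARG3 in yap1 (−0.99) in salt.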

How the results depend on the processing

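Over 37 counts of called genes, 468 of 504 alternative values lay within 1.5 times the reported count and 36 did not. Of 1928 alternative values for single genes, 1877 kept their direction and call, 51 kept the direction but lost the call, and 0 changed sign. DESeq2, its size factors, a filter at 10 CPM, the current edgeR method and a false discovery rate of 0.05 moved no count by more than 1.5 times. With DESeq2's size factors 20 genes rose and 2 fell in the mean salt response, beside 17 and 3, and the median of all genes shifted by up to 0.105 in the YPS606 salt response.

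Without the replicate block, the mean ethanol response still had 4 genes higher and 25 lower, and the block decided the call of HIS4 in the msn2/4 salt response. Residuals of same-numbered libraries of other cultures correlated by 0.0625 in the strain experiment and 0.0697 in the mutant experiment, so the block follows the study's model and not a strong pairing in the data. The culture as block changed no count by more than 1.5 times.

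With no filter, 1 gene fell in the mean salt response instead of 3, and against the mean of the other 7 strains 6 genes were called in unstressed M22 instead of 3 and 17 in unstressed YPS163 instead of 11. With no fold limit, 9 genes rose in the mean ethanol response, 14 fell in the mean salt response, 11 were called in the M22 ethanol response, 10 in the yap1 ethanol response and 17 in the yap1 salt response. Unstressed, 15 were then called in DBY8268, 12 in YJM1129, 17 in M1, 26 in YPS163, 25 in YPS606, 11 in M22 and 22 in YJM308.

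With libraries left out, counts against the mean ethanol response ranged over 6 to 13 in YJM1129, 7 to 15 in M1, 7 to 15 in Y10, 7 to 15 in YPS606 and 4 to 7 in M22. The lowest values came without replicate 2 in YJM1129, M1 and Y10, without replicate 3 in YPS606 and without replicate 1 or 3 in M22. Against the mean salt response they ranged over 0 to 4 in DBY8268, 1 to 3 in Y10, 8 to 13 in YPS163, 6 to 10 in M22 and 1 to 6 in YJM308, the lowest without replicate 1 in each. The fallers in the mean salt response ranged over 0 to 3 (0 without replicate 2), the unstressed skn7 count over 7 to 10 (7 without replicate 4), the skn7 salt count over 3 to 12 and the yap1 salt count over 4 to 14 (both lowest without replicate 3 and highest without replicate 1). Beyond fewer libraries, the cause was not tested. ARG3 is limited by depth, with 11 to 23 counts per library in the YPS606 ethanol group.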
